A study of Mus musculus with 18 samples.

Results

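PU.1 binding was compared between 3 and 12 h after induction (hpi) of a pre-B to macrophage conversion, over 85858 bins of 200 bp out of 12361703 on chromosomes 1 to 19. A bin entered when it held 8 or more PU.1 reads in either library, after the deeper library had been thinned to the depth of the other. Of these, 23930 bins (27.9%) were 2-fold or more higher at 12 hpi and 6952 (8.10%) 2-fold or more lower, at a pseudocount of 1. The 31000 bins that reached 8 reads at 12 hpi alone had to be higher there. Among them, the 11909 with fewer than 4 reads at 3 hpi had to be 2-fold or more higher. In the 42985 bins with 8 or more reads at both times the median log2 ratio was 0.09. In the 1311 bins with the most PU.1 at 0, 24 and 48 hpi together, the summed reads of 12 hpi were 0.781 of those of 3 hpi. Bins near genes of myeloid transcription factors had a median log2 ratio of 0.77 and those near B-lineage factors 0.00, beside 0.42 over all bins near genes. The median was 0.64 in the 25 bins near genes of T cells, erythroid cells and other tissues. Without Cebpb and after scaling by GC content, the myeloid median was 0.60, against 0.61 for the other-tissue genes.

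PU.1, encoded by Sfpi1 (also called Spi1), is an ETS-family transcription factor that binds purine-rich DNA around a GGAA core. It is needed for both macrophages and B cells, and is known to act with different partners in the lineages, C/EBP factors and AP-1 in myeloid cells and IRF factors in B cells. C/EBPα is the basic leucine zipper factor whose forced expression converts B-lineage cells into macrophage-like cells.

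The cells were C10, a line of HAFTL-derived mouse pre-B cells that carries a C/EBPα-estrogen receptor (C/EBPαER) fusion tagged with GFP, so that the inducing factor is an introduced protein, in 1 transformed line, while PU.1 is the protein of the cells themselves. β-Estradiol, which the labels give at 100 nM, moves the fusion into the nucleus, and the cells were kept with IL-3 and CSF-1 at 10 nM. Chromatin was precipitated with the PU.1 antibody sc-352, with 1 library at each of 0, 3, 12, 24 and 48 hpi, and the labels describe a solvent control for uninduced cells. C/EBPα and C/EBPβ were profiled in the same line at the same times, again with 1 library each and, per the labels, another library preparation than for PU.1.

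On chromosomes 1 to 19 the PU.1 library of 3 hpi held 6414863 reads and that of 12 hpi 10461718. Thinning kept 6414863 reads of the latter and left out 4046855, which served as a second reading of the same library. The libraries of 0, 24 and 48 hpi, which had no part in choosing or classing the bins, held 6884238 to 11094617 reads. Since each time had 1 library, no difference between times could be tested. The exact Poisson 95% intervals given for reads cover counting error only, and reads without molecular identifiers are not independent molecules. The exact Clopper-Pearson 95% intervals given for shares treat bins as independent, which adjoining bins are not, so they are too narrow. They also leave out the counting error that moves bins between classes. Levels are reads per bin per 10000000 reads of the full library, and log2 ratios are 12 over 3 hpi from the thinned counts with 1 added.

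The sequences of 8 bins are shown to set sites that differed between the times beside the strongest site and a site at the gene of PU.1 itself. They are the 3 bins furthest apart in each direction outside exons, the bin with the most reads, and the bin with most reads in the Pu.1 window. They were read 5′ to 3′ on the plus strand of mouse genome NCBIM37 (mm9), and capitals mark the GGAA core or its complement TTCC.
Nr4a1 bin, higher at 12 hpi, chr15:101093001-101093200: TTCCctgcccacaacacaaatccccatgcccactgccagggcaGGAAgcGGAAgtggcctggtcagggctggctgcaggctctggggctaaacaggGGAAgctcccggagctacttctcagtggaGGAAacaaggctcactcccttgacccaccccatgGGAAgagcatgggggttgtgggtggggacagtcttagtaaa
Hdac4 bin, higher at 12 hpi, chr1:93851601-93851800: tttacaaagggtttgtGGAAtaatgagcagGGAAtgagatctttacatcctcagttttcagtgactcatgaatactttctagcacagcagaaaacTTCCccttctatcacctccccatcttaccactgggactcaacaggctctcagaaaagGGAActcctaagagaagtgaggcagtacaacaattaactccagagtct
N6amt2 bin, higher at 12 hpi, chr14:58195601-58195800: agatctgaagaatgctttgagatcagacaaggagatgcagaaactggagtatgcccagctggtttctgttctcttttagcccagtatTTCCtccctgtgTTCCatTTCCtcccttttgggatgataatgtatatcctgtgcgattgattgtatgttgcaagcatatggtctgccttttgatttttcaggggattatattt
Cse1l bin, lower at 12 hpi, chr2:166701201-166701400: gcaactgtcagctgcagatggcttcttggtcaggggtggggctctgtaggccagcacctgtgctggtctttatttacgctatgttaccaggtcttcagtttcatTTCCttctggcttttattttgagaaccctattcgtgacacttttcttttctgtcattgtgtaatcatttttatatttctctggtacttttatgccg
Gm525 bin, lower at 12 hpi, chr11:88940601-88940800: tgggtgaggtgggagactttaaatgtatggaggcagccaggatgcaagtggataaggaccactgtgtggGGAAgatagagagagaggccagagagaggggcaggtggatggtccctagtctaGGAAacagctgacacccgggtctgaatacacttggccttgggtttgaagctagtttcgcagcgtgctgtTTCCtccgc
Gm6807 bin, lower at 12 hpi, chr19:45547001-45547200: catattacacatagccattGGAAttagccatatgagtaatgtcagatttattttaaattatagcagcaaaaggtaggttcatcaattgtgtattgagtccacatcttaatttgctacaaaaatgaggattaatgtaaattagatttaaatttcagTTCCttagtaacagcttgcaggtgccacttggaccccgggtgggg
9830001H06Rik bin, most reads, chr2:156889201-156889400: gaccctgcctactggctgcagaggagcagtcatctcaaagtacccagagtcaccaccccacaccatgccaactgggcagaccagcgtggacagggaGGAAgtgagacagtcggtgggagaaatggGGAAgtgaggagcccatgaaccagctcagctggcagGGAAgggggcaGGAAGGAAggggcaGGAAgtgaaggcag
Sfpi1 bin, Pu.1 window of the study, chr2:90923201-90923400: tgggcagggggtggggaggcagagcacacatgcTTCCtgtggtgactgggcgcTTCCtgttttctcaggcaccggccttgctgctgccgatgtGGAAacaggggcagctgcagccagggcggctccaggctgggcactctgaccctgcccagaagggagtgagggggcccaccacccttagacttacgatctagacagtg
The strongest bin held 6 GGAA cores, and 4 of them lay in the letters AGGAAG, 1 within the longer PU.1 consensus GAGGAAGT. The Sfpi1 bin held AGGAAG 2 times on the minus strand. Among the other 6 bins the Nr4a1 bin alone held AGGAAG (1 match), and the Hdac4 bin held 1 AP-1 consensus, TGANTCA. The Cse1l and Gm525 bins each held 2 matches to the E-box, which was searched as CAGCTG or CACCTG, and the Gm6807, N6amt2, 9830001H06Rik and Sfpi1 bins 1 each. A GGAA core stood in 87.5% of all bins without unread bases, so that its presence alone sets no bin apart.

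The Nr4a1 bin lay between genes, 4177 bp upstream of the start of Nr4a1, an immediate-early nuclear receptor. Its PU.1 level was 7.26 at 0 hpi, 3.12 (0.378 to 11.3) at 3 hpi, 93.7 (76.0 to 114) at 12 hpi, 56.8 at 24 hpi and 36.3 at 48 hpi. The intervals of 3 and 12 hpi did not overlap, and the level stayed above those of 0 and 3 hpi at both later times. The Cse1l bin, in an intron 30259 bp upstream of the nearest start, held 68.3 at 0 hpi, 103 (79.6 to 131) at 3 hpi, 15.3 (8.74 to 24.8) at 12 hpi, 3.61 at 24 hpi and 9.80 at 48 hpi. There too the intervals of 3 and 12 hpi were apart, in the other direction.

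The bin with the most reads lay in an intron 15690 bp downstream of the start of 9830001H06Rik. It held 370 at 0 hpi, 396 (349 to 448) at 3 hpi, 327 (293 to 363) at 12 hpi, 252 at 24 hpi and 282 at 48 hpi, so that the intervals of 3 and 12 hpi overlapped and the log2 ratio was -0.34. The Sfpi1 bin lay 12953 bp upstream of the start of the CCDS transcript of Sfpi1, and in an intron 753 bp downstream of the start of a longer annotated transcript. It held 110 at 0 hpi, 93.5 (71.4 to 120) at 3 hpi, 176 (151 to 203) at 12 hpi, 120 at 24 hpi and 105 at 48 hpi. Its level was thus highest at 12 hpi, with a log2 ratio of 0.77. This bin has 64% GC, and reads outside the compared bins also differed between the libraries by GC content. After division by the 12 to 3 hpi ratio of other bins of its GC content (1.70) the log2 ratio was 0.01. The same division gave -1.06 for the 9830001H06Rik bin, 3.56 for Nr4a1 and -2.94 for Cse1l.

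Over all 85858 bins the median log2 ratio was 0.36, and 40.3% of bins were less than 1.5-fold apart. The compared bins held 19.4% of the reads at 3 hpi and 22.2% of the thinned reads at 12 hpi. In the libraries of 0, 24 and 48 hpi they held 16.5%, 15.5% and 16.3%. Of the bins, 42985 reached 8 reads in both libraries, 11873 at 3 hpi alone and 31000 at 12 hpi alone. A bin of the last kind had to be higher at 12 hpi, so the counts of higher and lower bins describe the set as chosen. In the bins with 8 reads at both times the median log2 ratio was 0.09. Exact Poisson intervals of the thinned counts were apart in 4293 bins higher at 12 hpi (5.00%) and in 1543 lower (1.80%). The PU.1 consensus GAGGAAGT stood in 15.2% of the compared bins and in 1.2% of all bins, whose median GC contents were 48.5% and 42.0%. Such a match does not tell which ETS factor was bound. Just inside the threshold, the 13002 bins with a larger count of 8 had a median log2 ratio of 0.58, and just outside it the 17999 bins with a larger count of 7 had 0.42.

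**Figure D1:**
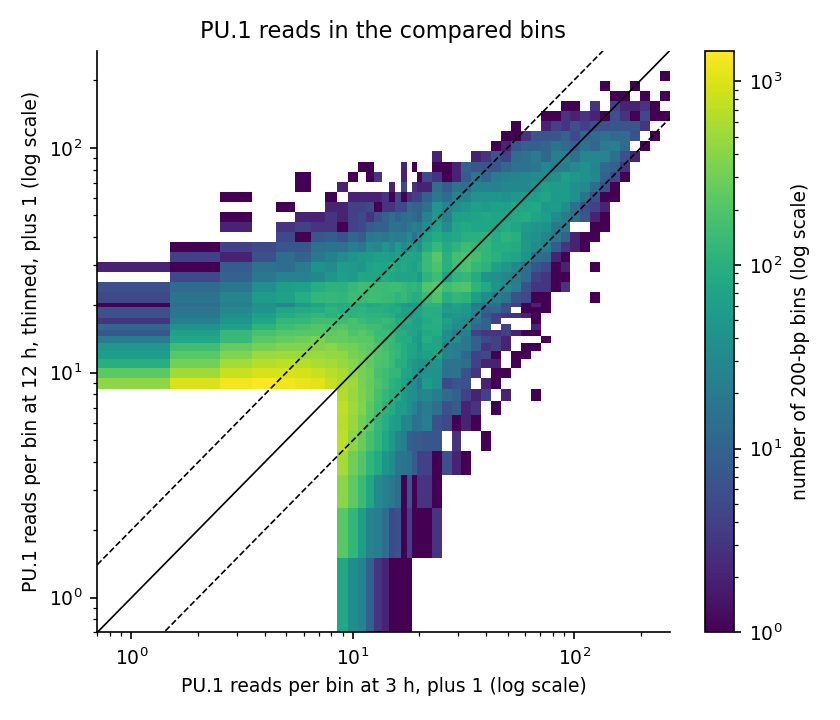
PU.1 reads per 200-bp bin at 3 h (x) and at 12 h after thinning (y), each plus 1, on log axes, over the 85858 compared bins. Colour gives the number of bins, the solid line equal counts and the dashed lines 2-fold differences. Bins with few reads at 3 h extend far above the upper line, while the bins with most reads at 3 h lie mostly below the solid line.

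The higher bins held 4.67 thinned reads on average at 3 hpi, which their choice makes low, and 15.1 at 12 hpi, and the reads left out by thinning, scaled to the same depth, gave 12.3. In those left-out reads 90.6% of the higher bins again exceeded their 3 hpi count and 58.0% did so by 2-fold or more. These shares describe the same library of 12 hpi against the 3 hpi counts that classed the bins, so the choice of bins sets them in large part. The lower bins held 17.0 reads at 3 hpi and 6.06 at 12 hpi, or 8.82 in the left-out reads, and 47.9% were again lower by 2-fold or more. With the left-out reads in place of the thinned ones, 17418 bins were higher and 9121 lower, and the share of higher among both moved from 77.5% to 65.6%.

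The ratio between the times was lower at stronger bins. In the 1437 bins with 80 or more reads at 3 hpi the summed reads of 12 hpi were 0.716 of those of 3 hpi, and none was 2-fold higher, although the level at 3 hpi enters this ratio. The ratio was 0.851 in bins with 40 to 79 reads, 0.992 with 20 to 39, and 1.09 with 12 to 19. Since 1 read is kept per position and strand, strong bins fill up, and a correction for filled positions gave 0.750 in place of 0.716. Because the level at 3 hpi enters the ratios above, bins were also chosen by the libraries of 0, 24 and 48 hpi instead, with 16 or more reads in their sum. Among these the ratio was 1.29 in the 28671 bins with 16 to 23 summed reads and 0.781 in the 1311 bins with the most. These 2 ratios were not corrected for filled positions. Since 24 and 48 hpi follow both compared times and 0 hpi alone precedes them, this choice can favour bins that gained PU.1.

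The 8 strongest bins had, at 0 hpi, levels from 282 to 446 and, at 3 hpi, from 277 to 396. At 12 hpi they ranged from 217 to 327, at 24 hpi from 180 to 252 and at 48 hpi from 122 to 282. Among them the bin 15674 bp upstream of Siglecg, a B-cell inhibitory lectin, held 394 (347 to 446) at 3 hpi and 233 (205 to 264) at 12 hpi. The bin 44259 bp upstream of Lifr, the receptor of leukemia inhibitory factor, held 391 (344 to 443) and 251 (222 to 284). In the GC strata scaling described next the 8 log2 ratios ran from -1.06 to -0.41. Intervals of the thinned counts were apart in 5 of the 8 (Lifr, Siglecg, Ube2e3, Gm5614 and Nlrp1a, all lower), and overlapped in the Tex2 bin with 277 (238 to 321) and 271 (240 to 304). The Gm5614 bin also held 199 for C/EBPα and 353 for C/EBPβ at 0 hpi, against means of 2.47 and 2.85 over all compared bins. Its reads were thus not particular to PU.1, and its fall may not describe PU.1 binding.

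The ratio was higher in GC-rich bins, inside and outside the compared bins. In compared bins of under 40% GC the summed reads of 12 hpi were 0.958 of those of 3 hpi, and in bins of 60% or more GC 1.88. In all other bins, where reads are mostly background but may include weak binding, the same ratios were 0.937 and 1.68. For C/EBPα the reads outside the compared bins had ratios of 0.825 and 1.56 in these strata. The part of GC content in the differences at single sites was not tested. The higher bins had a median GC content of 51.5%, the near-equal bins 47.5% and the lower bins 46%. Dividing by the ratio of other bins in GC strata of 2 percentage points left 19443 bins higher (22.6%) and 6200 lower (7.22%), with a median log2 ratio of 0.28. Of the 23930 higher bins 78% stayed higher, and of the 6952 lower bins 81.8% stayed lower. The ratio of bins with 80 or more reads was 0.719 after this scaling.

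Near transcription start sites (TSSs) of protein-coding genes, bins were more often higher at 12 hpi. Of the 15077 bins within 1 kb of a TSS, 39.6% were higher and 3.12% lower, against 19.6% and 11.8% of the 9797 bins over 100 kb away. The higher class had 24.9% (24.4 to 25.5) of its bins within 1 kb, the near-equal class 14.2% (13.9 to 14.6) and the lower class 6.78% (6.20 to 7.39). Bins within 1 kb had a median GC content of 58.0%. At 60% GC or more, 52.1% of bins within 1 kb and 52.3% of those further away were higher. After scaling by GC stratum, 20.2% of bins within 1 kb and 19.7% of those over 100 kb were higher, and 3.98% and 10.0% were lower. At 1 to 10 kb and 10 to 100 kb 24.5% and 23.3% were then higher, and 6.93% and 7.94% lower. The share of higher bins was thus lowest at both ends of the distance range under that scaling, and the share of lower bins stayed smallest within 1 kb.

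**Figure D2:**
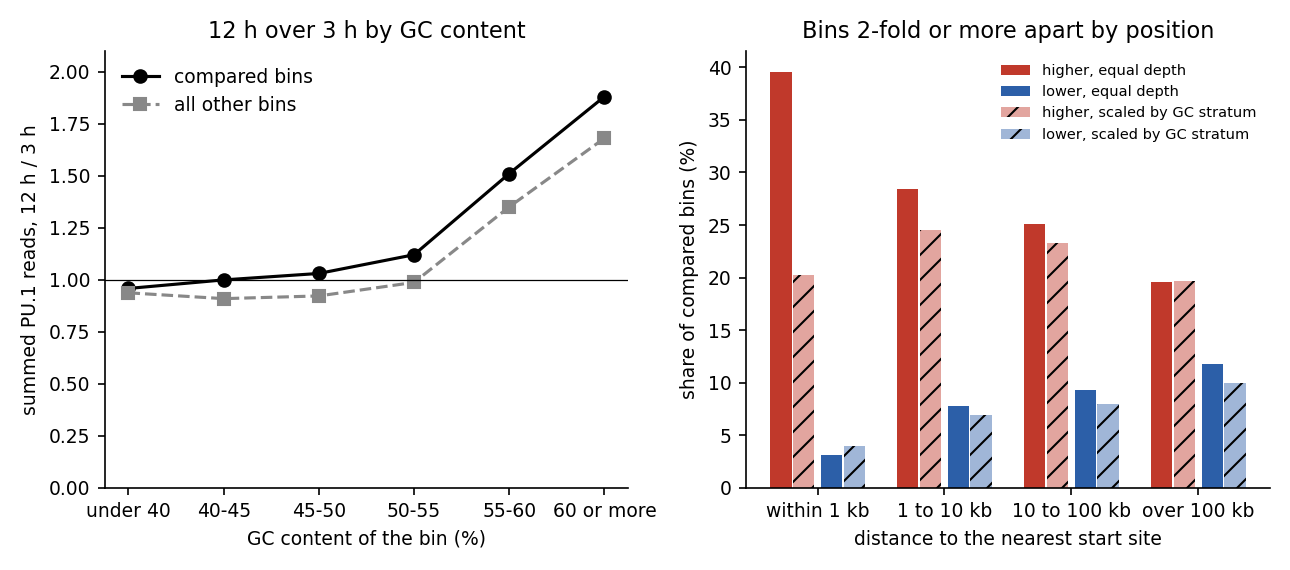
Left, summed PU.1 reads at 12 h over 3 h by GC content of the bin (%), for the compared bins (circles) and all other bins (squares), 0.958 and 0.937 below 40% GC and 1.88 and 1.68 at 60% or more. Right, share of compared bins (%) 2-fold or more higher (red) or lower (blue) at 12 h by distance to the nearest start site, at equal depth (solid) and after scaling by GC stratum (hatched), which brings the higher share within 1 kb from 39.6% to 20.2%.

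The other PU.1 libraries showed how these classes stood before and after. In the higher bins the mean level was 7.64 at 0 hpi, 7.28 at 3 hpi, 21.8 at 12 hpi, 14.8 at 24 hpi and 13.9 at 48 hpi. The means of 3 and 12 hpi in the higher and lower bins are set by how these bins were classed. At the times that had no part in it, the higher bins held more at 24 and 48 hpi than at 0 hpi. Reads of 24 over 0 hpi also differed by GC content outside the compared bins. There the log2 ratio of summed reads was -0.09 under 45% GC and 0.34 at 55% or more. In the higher bins of these strata it was 0.89 and 0.79. In the lower bins the mean was 19.3 at 0 hpi, 26.5 at 3 hpi, 11.1 at 12 hpi, 9.06 at 24 hpi and 9.26 at 48 hpi. Near-equal bins had 26.2, 31.3, 30.7, 22.0 and 24.4 at these times.

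The libraries of 0 and 48 hpi, thinned to equal depth, differed by class in the direction of the 3 to 12 hpi comparison although neither had defined it. The higher bins had a log2 ratio of summed reads of 0.86 from 0 to 48 hpi, the near-equal bins -0.10 and the lower bins -1.06. Of the higher bins 60.2% (59.5 to 60.8) held more reads at 48 hpi than at 0 hpi, and 69.3% of the lower bins held fewer, beside 46.4% and 46.5% over all compared bins. In bins of 45 to 50% GC the log2 ratios were 1.24, -0.06 and -1.03, and with 55% GC or more 0.29, -0.35 and -1.24. From 24 to 48 hpi the log2 ratio of summed reads was -0.08 in the higher and 0.03 in the lower bins.

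**Figure D3:**
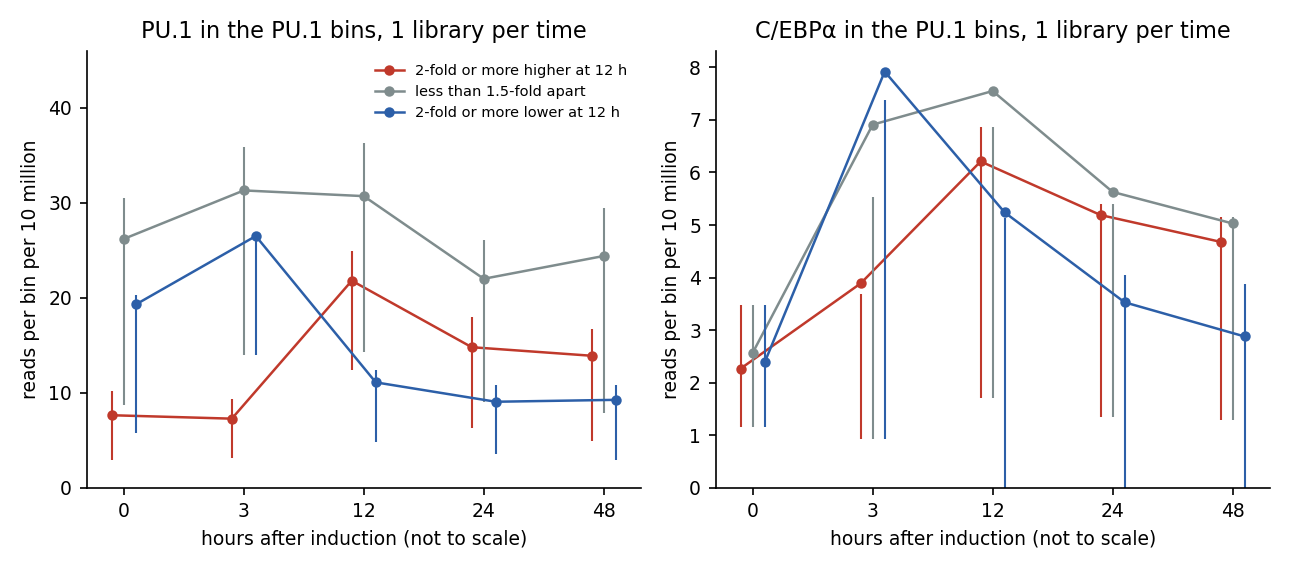
Mean reads per bin per 10000000 reads (circles; vertical lines span the 25th to 75th percentile of bins) for PU.1 (left) and C/EBPα (right) at 0, 3, 12, 24 and 48 h in PU.1 bins higher (red), near-equal (grey) and lower (blue) at 12 h than at 3 h. The mean of PU.1 in the higher bins is 7.64 at 0 h and 13.9 at 48 h, and that of the lower bins 19.3 and 9.26. The PU.1 means of these classes at 3 h and 12 h are set by the choice of bins.

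C/EBPα at the same bins differed between 3 and 12 hpi by PU.1 class. In thinned libraries the log2 ratio of summed C/EBPα reads was 0.67 in the higher, 0.13 in the near-equal and -0.61 in the lower PU.1 bins. For C/EBPβ, a related factor that can pair with C/EBPα, it was 0.42, 0.09 and -0.40. C/EBPβ reads outside the compared bins differed little by GC content (log2 ratio of 0.0044 under 45% and -0.02 at 55% or more). In bins of 45 to 50% GC the C/EBPα ratios were 0.55, 0.04 and -0.62, and those of C/EBPβ 0.52, 0.07 and -0.44.

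Grouped the other way, by C/EBPα, 73644 of the bins had fewer than 8 C/EBPα reads at both times, so that most of the PU.1 bins carried little C/EBPα. Of the 3240 bins whose C/EBPα was 2-fold or more higher at 12 hpi, 39.1% (37.5 to 40.8) were higher for PU.1 and 1.79% (1.36 to 2.31) lower. Of the 2177 bins whose C/EBPα was lower, 5.93% (4.97 to 7.0) were higher for PU.1 and 26.6% (24.7 to 28.5) lower. At 45 to 50% GC these shares were 35.0% and 2.41% with C/EBPα higher, and 4.02% and 32% with C/EBPα lower. Bins with near-equal C/EBPα had 15.1% higher and 6.81% lower, and those with fewer than 8 C/EBPα reads 29.1% and 7.87%, beside 27.9% and 8.10% over all compared bins. After scaling PU.1 by GC stratum, with the C/EBPα classes left unscaled, 25.8% of the bins with C/EBPα higher were higher for PU.1. The share was 11.4% in those with near-equal C/EBPα. The shares were 24.0% in bins with little C/EBPα and 22.6% over all. The bins with C/EBPα lower then had 5.42% higher and 22.1% lower. At 3 hpi the bins with little C/EBPα held a median of 9 PU.1 reads, against 11 with C/EBPα higher and 15 with near-equal C/EBPα.

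Consensus letters were searched on both strands of each bin. The PU.1 consensus GAGGAAGT stood in 13.7% of the higher, 17.3% of the near-equal and 11.2% of the lower bins. The shorter AGGAAG, which it contains, stood in 49.3%, 52.6% and 45.3%, against 21.2% of all bins. The GC box GGGCGG, bound by SP factors at promoters, showed the widest gap, with 14.3% of the higher and 3.12% of the lower bins (2.01% of all bins). In bins of 45 to 50% GC it stood in 2.66% and 3.03%, so that no excess in the higher bins was left there.

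The E-box CAGCTG or CACCTG, read by E proteins such as E2A of B-lineage cells, was more common in the lower bins, at 29.3% (28.3 to 30.4) against 22.1% (21.6 to 22.6) of the higher bins and 18.3% of all bins. At 45 to 50% GC it stood in 31.6% of the lower and 18.4% of the higher bins, and in 24.1% of all bins of that GC content. The consensus TCCCNNGGG of EBF1, a B-lineage factor, stood in 4.85% of the lower and 4.8% of the higher bins, against 1.87% of all bins, and in 5.07% and 2.43% at 45 to 50% GC. The RUNX consensus TGTGGTT stood in 7.03% of the lower and 4.65% of the higher bins, against 4.73% of all bins, and in 8.05% and 5.87% at that GC content.

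The AP-1 consensus TGANTCA stood in 8.46% (8.11 to 8.82) of the higher, 7.25% of the near-equal and 6.40% (5.84 to 7.0) of the lower bins. At 45 to 50% GC it was found in 10.6%, 7.64% and 7.20%, against 6.03% of all such bins. The composite ETS-IRF letters GGAANNGAA, which PU.1 and IRF4 or IRF8 share in B cells and macrophages, stood in 9.67% of the higher and 14.5% of the lower bins. At 45 to 50% GC they stood in 11.7% and 13.0%. They were in 6.40% of all bins and in 6.64% of all those of that GC content. The IRF letters GAAANNGAA stood in 6.65% and 8.64%, against 7.83% of all bins, but in 8.79% and 8.34% at that GC content. The C/EBP consensus TTGCNNAA stood in 8.25% of the higher and 10.1% of the lower bins, against 9.28% of all bins and 9.10% of the compared bins. At 45 to 50% GC it stood in 10.0% and 8.72%, the other way round, against 7.87% of all such bins. TGACGTCA (CRE) was in 0.560% and 0.216%, CAGGGGGC (CTCF) in 1.43% and 0.662%, and GGANTTTCC (NF-κB) in 0.744% and 0.619%. Over all bins these letters stood in 0.111%, 0.409% and 0.616%. At 45 to 50% GC the shares of higher and lower bins were 0.279% and 0.237%, 0.451% and 0.805%, and 0.559% and 0.568%. The CTCF intervals overlapped there (0.280 to 0.689 and 0.470 to 1.29). A match describes these letters and does not show that a factor was bound.

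**Figure D4:**
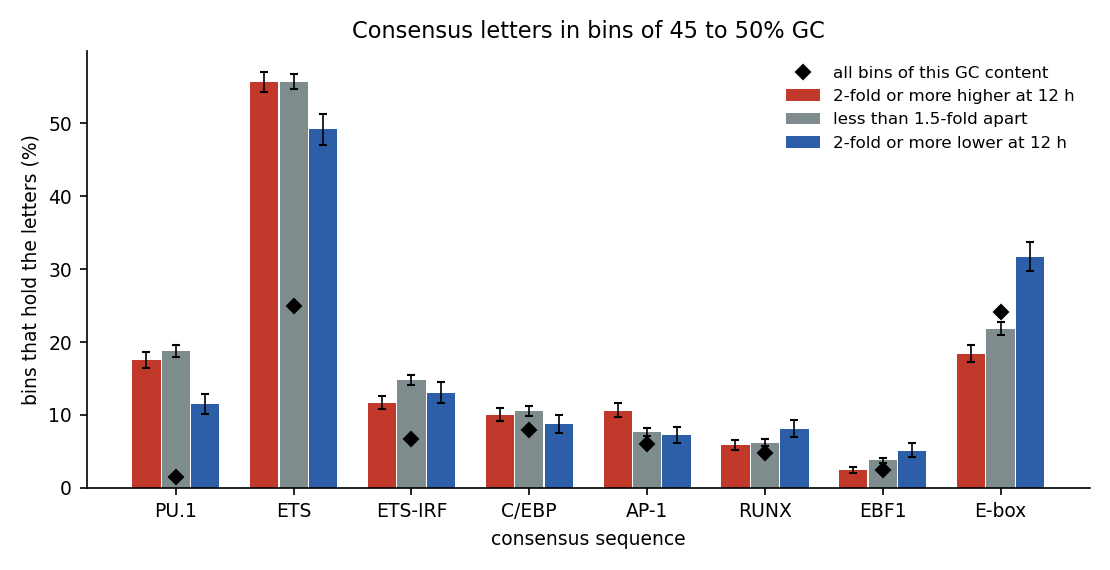
Share of bins (%) that hold each of 8 consensus sequences, for PU.1 bins of 45 to 50% GC that were higher (red), near-equal (grey) or lower (blue) at 12 h; error bars are exact 95% intervals and diamonds give all bins of that GC content. The E-box stands in 31.6% of the lower and 18.4% of the higher bins, and AP-1 in 7.20% and 10.6%.

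Genes were reached through the nearest TSS within 100 kb, a position and not evidence of regulation. Over all bins so assigned 28.9% were higher, 7.62% lower and the median log2 ratio was 0.42. For the list of myeloid transcription factors, 108 of 242 bins (44.6%) were higher and 7 (2.89%) lower, with a median of 0.77. All 15 of its genes with compared bins had more summed reads at 12 hpi, by a median of 1.46-fold, and 14 of 15 after scaling by GC stratum. Over all genes 9768 of 13660 had more, by a median of 1.33-fold, and the medians of the AP-1, housekeeping and other-tissue lists were 1.53, 1.59 and 1.79. In the left-out reads its median was 0.57, against 0.22 over all assigned bins. After scaling by GC stratum it was 0.68, against 0.30. At equal depth Cebpb alone gave 34 of the higher bins, and without it the median was 0.71 with 38.5% higher. Scaled by GC stratum, the median without Cebpb was 0.60. In the bins with 8 or more reads at 3 hpi the median was 0.23 for this list and -0.10 over all assigned bins. It was 0.26 for NADPH oxidase genes, 0.17 for AP-1, 0.13 for cytokines and chemokines and 0.11 for genes of other tissues. A high count at 12 hpi alone could not bring such bins in, while bins with 8 reads at 3 hpi alone stayed. This choice thus tilts the medians toward 3 hpi by construction.

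Cebpb encodes C/EBPβ, and 34 of its 50 bins were higher and none lower. Its strongest bin, 71285 bp downstream, held 32 at 0 hpi, 98.2 at 3 hpi, 133 at 12 hpi, 123 at 24 hpi and 132 at 48 hpi. Its log2 ratio of 0.46 was -0.17 after scaling by GC stratum. The reads over its 50 bins summed to 2.14-fold at 12 hpi. For Sfpi1, 8 of 16 bins were higher, and for Klf6, a zinc finger factor of activated macrophages, 14 of 35. The strongest bin of Runx1, a factor of blood cell formation, held 263 at 0 hpi, 210 at 3 hpi, 160 at 12 hpi, 134 at 24 hpi and 185 at 48 hpi, with a log2 ratio of -0.58. That of Egr1, an immediate-early factor of the macrophage lineage, held 95.9, 99.8, 142, 101 and 112 in the same order.

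For B-lineage transcription factors, 59 of 360 bins (16.4%) were higher and 50 (13.9%) lower, with a median of 0.00, or -0.30 in bins with 8 or more reads at 3 hpi. Summed reads were greater at 12 hpi for 6 of the 16 genes. Ets1, an ETS factor of lymphocytes, had 8 of 35 bins lower, 5 higher and a summed ratio of 0.775, and its strongest bin went from 207 at 3 hpi to 109 at 12 hpi and was at 182, 80.2 and 83.3 at 0, 24 and 48 hpi. Foxo1, which drives early B-cell genes, had a strongest bin at 183 at 0 hpi, 157 at 3 hpi, 85.1 at 12 hpi, 32.4 at 24 hpi and 27.4 at 48 hpi. For Pax5, the commitment factor of B cells, the strongest bin held 254, 162, 123, 89.2 and 70.6 at these times, so that it was lower at each later time. Bach2, a repressor in B cells, had a strongest bin with a log2 ratio of -0.61, and Bcl11a, needed for lymphoid cells, one of -0.39. Over all bins with 80 or more reads at 3 hpi the median was -0.52. Over all bins of each gene the medians were 0.17 for Bach2 (8 of 47 higher, 5 lower) and 0.42 for Bcl11a, whose summed ratio was 1.11. Beyond these 5 genes, Irf8 was among the 6 with more summed reads at 12 hpi. It had 11 of 40 bins higher, 0 lower and a summed ratio of 1.43.

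For pre-B receptor and recombination genes 24 of 116 bins (20.7%) were higher and 16 (13.8%) lower, with a median of 0.13 that became -0.11 in the left-out reads and -0.0048 after scaling by GC stratum. The strongest bin of Blnk, the adaptor of the pre-B receptor, lay 1275 bp upstream of its TSS. It held 253 at 0 hpi, 195 at 3 hpi, 72.6 at 12 hpi, 53.2 at 24 hpi and 43.1 at 48 hpi. The strongest bin of Bank1, a B-cell scaffold, held 240, 207, 66.9, 28.8 and 39.2 in that order. In both, the thinned counts of 3 and 12 hpi had intervals that were apart. Cd79a and Cd79b, the signalling chains of the receptor, did not share this course, since their strongest bins had log2 ratios of 0.16 and 0.95. Cd79a nevertheless stood at 40.6 and 17.6 at 24 and 48 hpi, below its 103 at 3 hpi. For Il7r, the receptor of the cytokine that pre-B cells need, the strongest bin held 150 at 3 hpi and 101 at 12 hpi.

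For macrophage receptors, 94 of 278 bins (33.8%) were higher and 11 (3.96%) lower, with a median of 0.42, the same as over all assigned bins at equal depth. After scaling by GC stratum it was 0.48, against 0.30. Csf1r, the receptor of CSF-1, had 10 of 18 bins higher and a summed ratio of 2.13. This was the highest among the 5 genes of this list whose strongest bins held most reads. Beyond these, Fcer1g and Fcgr3 had ratios of 2.88 and 4.40. The strongest bin of Csf1r lay in an intron 2767 bp downstream of the TSS. It held 37.8 at 0 hpi, 76.4 (56.5 to 101) at 3 hpi, 178 (153 to 205) at 12 hpi, 98.2 at 24 hpi and 60.8 at 48 hpi. It has 63.0% GC, and its log2 ratio of 1.2 was 0.43 after scaling by GC stratum. The strongest bins of Tlr4, the lipopolysaccharide receptor, and Cd36 and Msr1, scavenger receptors, had log2 ratios of -0.44, -0.49 and -0.25, and that of Ifngr2, the interferon gamma receptor chain, had -0.12.

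Lysosome and granule genes had 42 of 143 bins (29.4%) higher and 5 (3.50%) lower, with a median of 0.35 (0.38 after scaling by GC stratum). The strongest bin of Lyz1 (lysozyme) held 182 at 0 hpi, 235 at 3 hpi, 169 at 12 hpi, 108 at 24 hpi and 208 at 48 hpi. Those of the cathepsin genes Ctss, Ctsc and Ctsb had log2 ratios of -0.54, -0.87 and -0.52, and that of the elastase Mmp12 -0.34. NADPH oxidase genes had 13 of 56 bins higher (23.2%) and 2 lower, and the strongest bins of its subunit genes Cyba, Ncf4 and Ncf1 had log2 ratios of 0.42, 0.34 and 0.63. Cytokine and chemokine genes had 39 of 128 bins higher (30.5%) and 7 lower, beside 28.9% over all assigned bins, with a median of 0.60 (0.68 after scaling by GC stratum). Among its 5 genes whose strongest bins held most reads, Il1b had 11 of 19 bins higher, Il6 6 of 22, Ccl6 4 of 14, Csf1 2 of 15 and Il1rn 2 of 12. Their strongest bins had log2 ratios of -0.21, -0.44, -0.31, -0.34 and 0.74 in the same order. In the left-out reads these were -0.09, -0.50, -0.03, 0.10 and 0.59. For AP-1 genes 54 of 139 bins (38.8%) were higher and 6 lower, with a median of 0.58 (0.43 after scaling by GC stratum). Within it, the strongest bin of Fosb held 82.6 at 3 hpi and 163 at 12 hpi, while that of Atf3 held 212 and 86.0. Those of Jun, Batf and Junb were near-equal, with log2 ratios of 0.42, 0.08 and 0.42.

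Housekeeping genes had 26 of 81 bins (32.1%) higher and 7 lower, with a median of 0.52 that was 0.17 after scaling by GC stratum. Genes of T cells, erythroid cells and other tissues had 8 of 25 bins higher (32%) and 0 lower, in 10 of 19 genes. Their median was 0.64 (0.61 after scaling by GC stratum). It was 0.77 (0.68) for the myeloid factors, 0.71 (0.60) for these without Cebpb, and 0.60 (0.68) for the cytokine and chemokine genes.

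The windows shown in the study were chosen there from libraries that include these, so their values describe them only. Of 34 windows 31 held a compared bin, and overlapping windows shared their strongest bin, leaving 26 bins. In 8 of them PU.1 was 2-fold or more higher at 12 hpi, in 0 lower, and the median log2 ratio was 0.50, beside 27.9% higher and 0.36 over all compared bins. The intervals of the thinned counts were apart in 3, at Sfpi1 (the Pu.1 window), Ctsd and Csf1r. With the full libraries those of Ctsd overlapped (8.56 to 30.7 and 28.1 to 53.2), and those of Fgd4 were apart (15.4 to 42.4 and 42.9 to 72.7). The 8 lay at Cebpb, Fgd4, Tlr4, Ctsd, Dusp1, Rassf3, Csf1r and Gadd45b. After scaling by GC stratum 5 remained (Fgd4, Tlr4, Ctsd, Dusp1 and Rassf3), and Cebpb, Csf1r and Gadd45b had log2 ratios of 0.84, 0.43 and 0.75. In the left-out reads the bins of Ctsd, Rassf3 and Cebpb, at 0.35, 0.84 and 0.84, were below 2-fold, while that of Sfpi1 was above it at 1.08.

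The bin of the Cebpb window 65285 bp downstream of its TSS held 5.81 at 0 hpi, 18.7 (9.67 to 32.7) at 3 hpi, 42.1 (30.6 to 56.5) at 12 hpi, 16.2 at 24 hpi and 15.7 at 48 hpi. Here C/EBPα went from 137 to 267 between 3 and 12 hpi. At Ctsd (cathepsin D) PU.1 held 7.26, 17.1, 39.2, 39.7 and 81.3 in order of time. At Fgd4, a guanine nucleotide exchange factor gene, it held 13.1, 26.5, 56.4, 68.5 and 82.3, higher at every later time. In contrast, PU.1 at Il1b, which encodes interleukin 1β, held 184 (152 to 220) at 3 hpi and 164 (141 to 191) at 12 hpi, which overlapped. The Plek bin, at a gene of a protein kinase C substrate, held 75.5, 104, 65.0, 42.4 and 43.1.

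**Figure D5:**
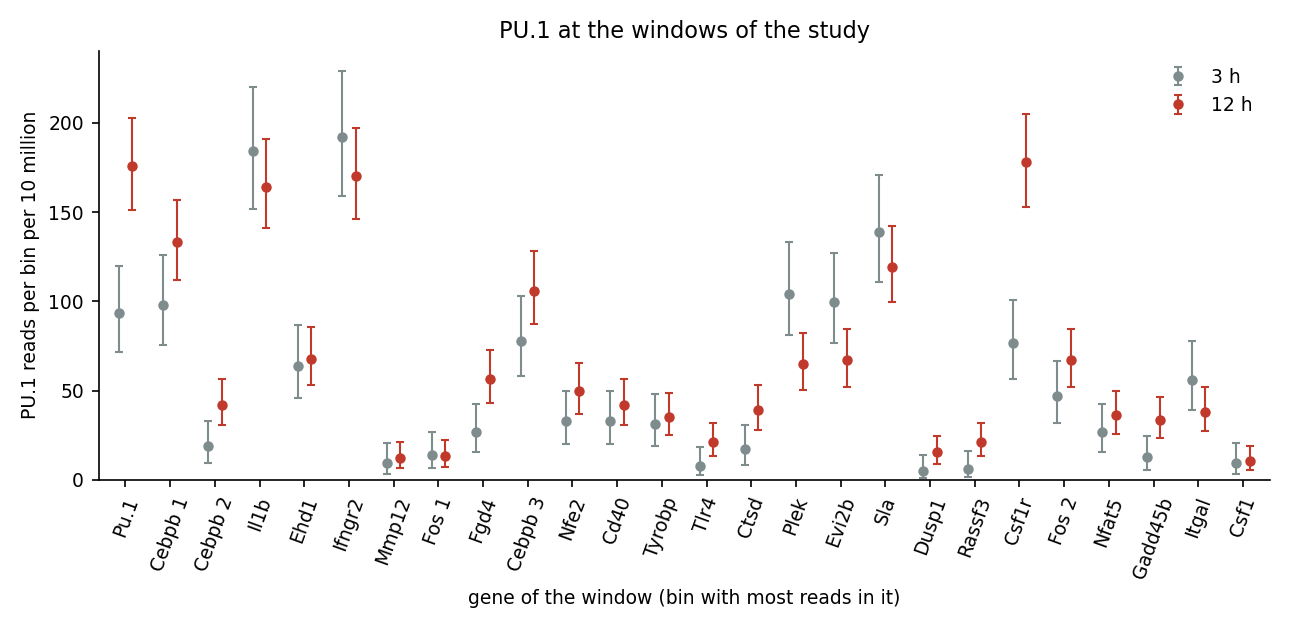
PU.1 reads per bin per 10000000 reads at 3 h (grey) and 12 h (red), full libraries, in the 26 bins with most reads in the windows of the study, labelled by gene. Bars are exact Poisson 95% intervals of single libraries. The Pu.1 and Csf1r bins stand at 93.5 and 76.4 at 3 h and at 176 and 178 at 12 h, while Il1b, Ifngr2 and Sla overlap between the times.

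Among bins with 30 or more reads in the library where they were higher, the furthest 12 in each direction were listed, each with its own nearest gene. Of 12958 such bins 14.3% were higher and 5.77% lower. These bins were chosen by their ratio, and the values of the other times are independent of that choice. The 12 highest had 1.56 to 7.79 at 3 hpi and 32.5 to 105 at 12 hpi. At 0 hpi they had 0 (0 to 5.36, at Igsf6) to 18.9, and at 48 hpi 9.80 to 120. All 12 had more PU.1 at 48 hpi than at 0 hpi, although the intervals of these times overlapped at N6amt2 and Psap, the latter with 8.72 (3.20 to 19) and 9.80 (4.70 to 18). They stayed 2-fold or more higher after scaling by GC stratum, and in the left-out reads their log2 ratios were 1.88 (at Plec, from 3.95) to 4.46.

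The Lipa bin, in an intron 11664 bp downstream of the TSS of lysosomal acid lipase, held 5.81 at 0 hpi, 1.56 (0.0395 to 8.69) at 3 hpi, 46.8 (34.7 to 61.9) at 12 hpi, 47.8 at 24 hpi and 39.2 at 48 hpi. The Psap bin, near the gene of the precursor of the saposins, held 8.72, 1.56, 41.1, 29.7 and 9.80. A second Csf1r bin, 14767 bp downstream of the TSS in an exon, held 1.45, 3.12, 55.4, 61.3 and 50.0. The Ier5l bin, 13581 bp upstream, held 18.9, 7.79, 105, 95.5 and 113. At the Igsf6 bin 97.7% of the reads lay on the plus strand, unlike the other 11, which had 38.5% to 78.9%.

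The Hdac4 bin, shown above, held 2.91, 1.56, 49.7, 30.6 and 73.5, and the N6amt2 bin 4.36, 1.56, 56.4, 15.3 and 11.8. C/EBPα stood at 0 to 22.3 at 12 hpi over the 12 bins, and 6 of them were above the mean of all compared bins, 6.86.

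The 12 lowest had 48.3 to 201 at 3 hpi, 6.69 to 28.7 at 12 hpi and 0.980 to 10.8 at 48 hpi, against 16 to 218 at 0 hpi. All 12 had less PU.1 at 48 hpi than at 0 hpi, and all stayed lower by 2-fold or more after scaling by GC stratum. The Tbc1d16 bin, in an intron 30390 bp downstream of a TSS of a gene for a Rab GTPase-activating protein, held 218 at 0 hpi, 201 (168 to 239) at 3 hpi, 28.7 (19.3 to 40.9) at 12 hpi, 15.3 at 24 hpi and 10.8 at 48 hpi. The Ccdc90b bin held 34.9, 67, 6.69, 9.91 and 10.8, and its C/EBPα went from 64.6 at 3 hpi to 20.6 at 12 hpi. The Gm10088 bin held 45, 118, 22.0, 8.11 and 6.86, with C/EBPα from 81.2 to 5.14. The Gm525 and Gm6807 bins held 72.6 and 24.7 at 0 hpi, 62.4 and 48.3 at 3 hpi, and 11.5 and 7.65 at 12 hpi. Others lay near Chst3, Pth2r, Med13l, Fam154a, Gm17506 and Lhx8. In the left-out reads the 12 log2 ratios ran from -4.09 to -0.75, and that of Med13l, at -0.75, was no longer 2-fold lower.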

How the data were processed

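ChIP-seq reads for PU.1 and both C/EBP factors at 0, 3, 12, 24 and 48 h were used, 1 library each. The authors aligned reads to mm9 (the labels name Bowtie and HOMER) and deposited the position and strand of each read, a raw list with no normalization, control or depth scaling, already without repeated positions for PU.1. At 0 h 1 line of PU.1 had no position. Of 18 libraries 15 were read, and 3 were not used here.

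Repeated positions were dropped, 5′ ends moved 75 bp inward, and the library of 12 h was thinned at random (seed 1). Reads were counted in 200-bp bins of chromosomes 1 to 19. Classes were 2-fold or more higher or lower, and near-equal (less than 1.5-fold), with a pseudocount of 1. Genome and genes were NCBIM37 and GENCODE vM1, and coordinates count from 1. No reference library was subtracted, so levels include background. Bins of 1 site adjoin (52994 runs) and are not independent. The members, 10 gene lists and 14 consensus sequences were chosen with earlier results of these data known.

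Named bins were the 12 highest and 12 lowest log2 ratios among bins with 30 or more reads in 1 library, 1 per run and gene. Named too were the 8 with most reads and the bin with most reads in each window of the study. For most lists the 5 genes whose strongest bin held most reads were named, and any others are marked as such. Not all 5 were named for NADPH oxidase genes, and none for housekeeping and other-tissue genes. Seed, shift, bin, minimum, fold, pseudocount and scaling were varied. For a GC scaling added after seeing the data, counts of 12 h were divided by the 12 to 3 h ratio of other bins in strata of 2% GC (0.907 to 1.76). Counting was tested on simulated data. Python 3.11.15, numpy 2.4.6, pandas 2.3.3, scipy 1.17.1 and matplotlib 3.10.9 were used.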

Additional observations from a re-analysis of the deposited data

How the results depend on the processing

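Higher bins outnumbered lower bins under the alternatives run, except with 8 or more reads required at 3 hpi. There lower bins were more frequent and the median over the assigned bins was -0.10. That minimum selects on the count at 3 hpi, so it favours lower bins by construction. Single bins moved between classes, and 78% of the higher and 81.8% of the lower bins kept their class after scaling by GC stratum. With bins of 16 or more reads in either library 7037 were higher and 2030 lower, with 16 in the sum 11279 and 3316, at 3-fold 11232 and 2412, at 1.5-fold 36620 and 14653, and with 1 bin a site 15015 and 4184. These settings change the number of bins or the fold by construction. Bins chosen by the other PU.1 libraries, of which only that of 0 h precedes 3 h, gave 16126 higher and 4312 lower. The median log2 ratio was 0.38 at full depth, in 400-bp bins and with 1 bin a site, 0.41 scaled to outside reads, 0.27 centred, 0.19 with left-out reads, 0.22 with either minimum of 16, 0.31 at a pseudocount of 3, 0.37 with strand balance, 0.36 corrected for filled positions, 0.26 for bins chosen elsewhere and 0.28 scaled by GC stratum. With shifts shorter and longer than 75 bp, another seed and bins moved by 100 bp the median was 0.36, with 23663 to 24072 bins higher and 6889 to 7082 lower. The longer shift, filled positions, 1 bin a site, bins chosen elsewhere, the GC strata, the distance from a TSS and the minimum at 3 h were chosen after seeing the data. No paired analysis was possible because each time had 1 library.

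The gap between higher and lower bins in the log2 ratio of PU.1 from 0 to 48 h was 1.92. It was 2.14 scaled by GC stratum and with 1 bin a site, 1.97 scaled to outside reads, 1.75 with left-out reads, 2.36 with 16 reads, 2.39 at 3-fold and 2.03 with strand balance. For C/EBPα from 3 to 12 h it was 1.28, and in the same order 1.11, 1.35, 1.32, 1.19, 1.40, 1.61 and 1.32. The scaling by GC stratum changed the PU.1 classes and not the C/EBPα reads. The GC box share of higher over lower bins was 4.57, but 1.61 scaled by GC stratum, 1.49 at 45 to 55% GC and 2.45 over 1 kb from a TSS, and 3.96, 5.73 and 5.84 with left-out reads, 16 reads and 3-fold. That of the E-box was 0.754, and 0.639, 0.610, 0.616, 0.695, 0.683 and 0.642 by GC stratum, at 45 to 55% GC, with 16 reads, at 3-fold, with strand balance and with 1 bin a site. For bins within 1 kb the ratio was 3.68, and 1.62 by GC stratum, 2.88 with left-out reads and 5.66 with 16 reads. The myeloid list exceeded the B-lineage list by 0.77 in median log2 ratio, and by 0.53 in bins with 8 or more reads at 3 h. In those bins the medians of all assigned bins, pre-B, macrophage receptor and lysosome lists turned to -0.10, -0.34, -0.09 and -0.06. This choice leaves out bins reaching 8 reads at 12 h alone and keeps those reaching 8 at 3 h alone. The pre-B list also turned with left-out reads (-0.11). Of the windows 5 in place of 8 bins were higher by GC stratum. The causes were not tested.

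With 1 library per time, differences between cultures, precipitations or sequencing runs cannot be told apart from time. Counts of 8 reads carry wide Poisson intervals, and most 2-fold classes rest on bins whose single intervals overlap.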

Other observations

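Some further genes were chosen after their values were seen. The strongest bin of Il1a, which encodes interleukin 1α, held 5.81 at 0 hpi, 10.9 (4.39 to 22.5) at 3 hpi, 66.0 (51.3 to 83.5) at 12 hpi, 46 at 24 hpi and 51.9 at 48 hpi, and 8 of its 10 bins were higher. For Fcer1g, the signalling chain of Fc receptors, the strongest bin held 13.1, 35.9, 101, 69.4 and 111 in order of time, with 5 of 6 bins higher. Ctsd had 13 of 17 bins higher and Nr4a1 12 of 16. Fcgr2b, the inhibitory Fc receptor of B cells and macrophages, had a strongest bin at 176, 140, 76.5, 59.5 and 87.2.

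Between chromosomes the median log2 ratio ran from 0.23 on chromosome 1 to 0.46 on chromosomes 7, 8, 15 and 17.

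Bins with both AGGAAG and the C/EBP consensus (3826, or 4.46% of the compared bins) had 15.3 C/EBPα reads per 10000000 on average at 12 hpi, against 13.6 in the bins with the C/EBP consensus alone and 6.14 in the 39598 bins with AGGAAG alone. Their PU.1 was higher in 25.3% (23.9 to 26.7) and lower in 7.58% (6.76 to 8.46), against 27.4% (26.9 to 27.8) and 7.22% (6.97 to 7.48). Bins with a C/EBP consensus and no AGGAAG were higher in 25.3% and lower in 10.4%.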
